A study of Homo sapiens with 6 samples.

Results

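The PIAS SUMO ligases and the SENP SUMO proteases were examined in T24 cells, an established human bladder cancer cell line, after knockdown of UBC9. The 10 genes were taken by their symbols, the 4 ligase genes PIAS1, PIAS2, PIAS3 and PIAS4 and the 6 protease genes SENP1, SENP2, SENP3, SENP5, SENP6 and SENP7, out of 58174 genes listed for each sample. RNA was sequenced from 3 samples of T24 cells carrying a control shRNA (shRNA-NC, scrambled) and from 3 samples carrying an shRNA against UBC9 (shRNA-UBC9). The hairpin against UBC9 was delivered by lentivirus from the pLKO.1 vector, and infected cells were selected with puromycin into stable populations. The methods give 1 hairpin against UBC9, so a response to this hairpin and a response to loss of UBC9 cannot be told apart. Nothing in the labels says that the 3 samples of a group came from separate cultures, so the p-values measure only the spread between these samples, which may be technical.

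SUMO is a small protein that is attached to other proteins in steps that resemble ubiquitination. An E1 enzyme made of SAE1 and UBA2 activates SUMO, the E2 enzyme UBC9 transfers it to the substrate, and E3 ligases such as the PIAS proteins help UBC9 find its substrates. The SENP proteases mature the SUMO precursors and remove SUMO from substrates, so the modification is reversible. PIAS proteins were first described as inhibitors of activated STAT transcription factors, which carry cytokine signals.

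Reads mapped per sample, recovered from the steps between low values, ranged from 28219032 to 36058872, and the ranges of both groups overlapped. Levels are RPKM (reads per kilobase of gene, scaled to the mapped reads of the sample), so levels of different genes can be set side by side. In bulk RNA, less transcript per cell and fewer cells with the transcript cannot be told apart. Of 14 markers listed for urothelium and epithelium, among them the mesenchymal gene VIM, 7 were expressed highly enough to be tested. Of these 7, 5 were called lower, beside 18% of all tested genes, and 2 (EPCAM and VIM) were not called. EPCAM had 0.658 ± 0.296 RPKM in shRNA-NC and 1.5 ± 0.912 RPKM in shRNA-UBC9 (SD, n = 3 each), with overlapping groups. Its log2 fold change was 1 (limma adjusted p = 0.0984), the other way from the called markers. VIM had a log2 fold change of -0.38 (limma adjusted p = 0.121). KRT7, KRT18, PPARG and KRT8 had log2 fold changes of -1.11, -0.93, -2.15 and -0.81 (limma adjusted p-values of 0.000578, 0.000959, 0.00169 and 0.0042). KRT5 and KRT20 were listed at 0 in every sample, and UPK1A, UPK1B, UPK2, UPK3A and TP63 did not exceed 0.125 RPKM. The summed level of these markers was lower in shRNA-UBC9 (790 to 888 RPKM) than in shRNA-NC (1340 to 1570 RPKM). VIM gave 286 to 473 RPKM of the sum in shRNA-UBC9 and 416 to 496 RPKM in shRNA-NC. KRT7, KRT8 and KRT18 gave most of the rest, so the sum is not a level of urothelium. The part of this shift in the values of the PIAS and SENP genes was not tested. Of 9 markers of leukocytes, endothelium and fibroblasts, 3 (CD14, CDH5 and COL1A1) passed the filter. The 9 summed to 3.79 to 4.29 RPKM in shRNA-NC and 2.32 to 2.42 RPKM in shRNA-UBC9, and PTPRC, the pan-leukocyte marker, did not exceed 0.102 RPKM. CDH5, an endothelial cadherin, fell to 0.619 ± 0.39 from 2.87 ± 0.287 RPKM (SD, n = 3 per group, limma adjusted p = 0.00288), and COL1A1, a fibroblast collagen, rose to 0.818 ± 0.221 from 0.377 ± 0.137 RPKM (adjusted p = 0.0276), a call lost without shRNA-NC replicate 1 or 3 or shRNA-UBC9 replicate 1 or 2 (adjusted p-values of up to 0.0903). COL1A1 reached the filter level of 0.5 RPKM in every shRNA-UBC9 sample but in shRNA-NC only in replicate 2 (0.535 RPKM). It thus entered the test through the group where it was higher. These calls stand beside 18.8% of all tested genes called higher and 18% called lower. CD14, a monocyte marker, had 0.52 ± 0.225 and 0.717 ± 0.0311 RPKM and was not called (limma adjusted p = 0.25). The bearing of these markers on the PIAS and SENP values was not tested.

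After knockdown of UBC9, 4 of the 10 PIAS and SENP genes passed the test. SENP2, SENP5 and PIAS4 rose, by 32.1%, 42.9% and 22.8%, and SENP7 fell by 32.4%. The other 6 genes did not pass the test. A gene was called when its adjusted p-value was below 0.05 in limma, fitted on log2(RPKM + 0.1) over 12428 tested genes. Fold changes refer to log2(RPKM + 0.1), so those of genes with little transcript come out too small. All 10 genes passed the filter on low values. The 4 calls among 10 genes stand beside 36.8% of all tested genes called by the same rule, and the 3 higher and 1 lower beside 18.8% and 18% of all tested genes, so the share of members called was close to the background. None of the 10 reached the study's cutoff for a DEG (|log2 fold change| above 1 with an adjusted p-value below 0.05), which 7.89% of all tested genes passed. Over all tested genes the median absolute log2 fold change was 0.268. In 21% of the tested genes the change was larger than that of SENP7, the member that moved most, and in 92.1% it was larger than that of SENP6.

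**Figure D1:**
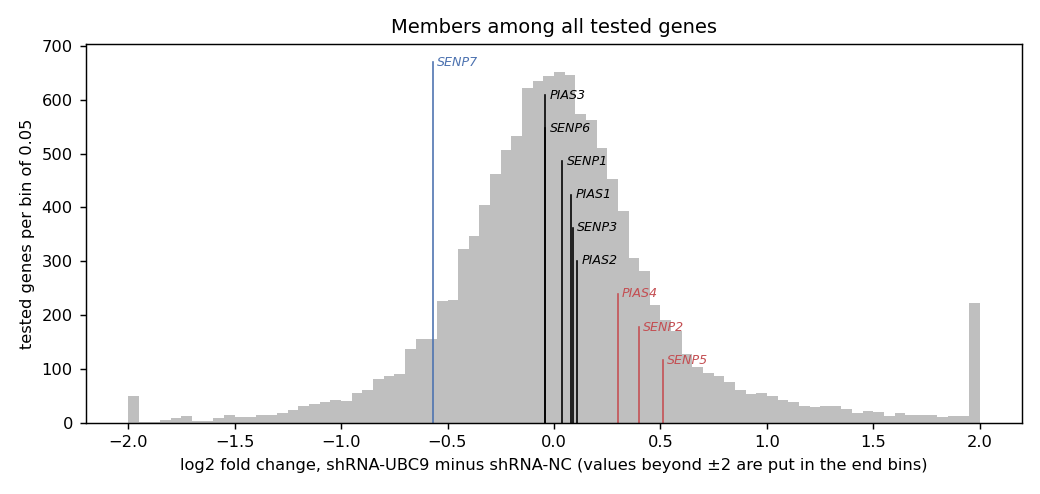
Histogram of the log2 fold change (shRNA-UBC9 minus shRNA-NC) of the 12428 tested genes, in bins of 0.05, with values beyond 2 in either direction placed in the end bins. Vertical lines mark the 10 members, red for called higher, blue for called lower and black for not called, and their height only separates the names. SENP7 lies at -0.57 and SENP5 at 0.51, inside the bulk of the distribution.

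The start regions of PIAS4 and SENP5, which rose, are shown because both genes were called higher, with that of SENP1, which holds the single match of a member to the interferon motif searched. Each runs from 250 bases before to 50 bases after an annotated start, and was taken from RefSeq (GRCh38.p14). Capitals mark the GC box, GGGCGG or CCGCCC, in PIAS4 (chr19:4007486-4007785, plus strand) and SENP5 (chr3:196867670-196867969, plus strand), and the interferon response element core, a pair of GAAA with 2 bases between them, in SENP1 (chr12:48106030-48106329, minus strand).
PIAS4: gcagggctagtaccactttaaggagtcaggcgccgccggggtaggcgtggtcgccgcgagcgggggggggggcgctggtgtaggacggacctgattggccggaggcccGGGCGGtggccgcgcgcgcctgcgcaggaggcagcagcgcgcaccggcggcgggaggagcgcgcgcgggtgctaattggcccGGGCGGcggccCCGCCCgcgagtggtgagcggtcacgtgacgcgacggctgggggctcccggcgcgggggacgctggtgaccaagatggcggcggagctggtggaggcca
SENP5: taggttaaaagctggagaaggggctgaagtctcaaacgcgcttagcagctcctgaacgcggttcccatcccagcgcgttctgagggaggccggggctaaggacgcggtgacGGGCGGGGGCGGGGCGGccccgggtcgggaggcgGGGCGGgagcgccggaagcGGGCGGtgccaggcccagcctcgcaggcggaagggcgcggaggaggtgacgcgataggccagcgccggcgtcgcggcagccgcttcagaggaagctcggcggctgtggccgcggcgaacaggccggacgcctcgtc
SENP1: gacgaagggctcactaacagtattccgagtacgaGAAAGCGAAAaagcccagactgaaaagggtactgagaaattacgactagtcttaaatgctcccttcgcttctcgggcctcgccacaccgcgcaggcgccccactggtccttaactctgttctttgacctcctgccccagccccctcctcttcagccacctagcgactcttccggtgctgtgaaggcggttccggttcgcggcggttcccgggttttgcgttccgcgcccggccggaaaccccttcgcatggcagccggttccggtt

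PIAS4 had 77% G+C and 44 CpG sites, SENP5 had 73% G+C and 41 CpG sites and this window of SENP1 had 59.7% G+C and 27 CpG sites, against medians of 58.7% and 14 over 35116 windows in the table. The GC box, which binds SP1-type factors, matched 3 times in PIAS4 and 5 times in SENP5, with overlapping matches counted. The table held 12 windows for 8 of the 10 genes and none for SENP2 and SENP7. Of these 12 windows, 8 held a GC box (45% of all windows in the table). The core of the interferon response element, sought on both strands, was found in 1 window, of SENP1 (3.57% of all windows). The CCAAT box, as CCAAT or ATTGG, was found in 1 window, that of PIAS4 (34.6% of all windows). A match is a description of these letters only.

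Among the ligases, PIAS3 and PIAS4 held most of the summed RPKM. PIAS4, also called PIASy, is a nuclear ligase with roles in the DNA damage response. It had 5.58, 5.50 and 4.98 RPKM in shRNA-NC and 6.61, 6.40 and 6.75 RPKM in shRNA-UBC9. Every shRNA-UBC9 sample was above every shRNA-NC sample, with a log2 fold change of 0.30 (95% interval 0.10 to 0.50, SE 0.088, limma adjusted p = 0.03). The call depended on single samples. Without shRNA-NC replicate 3 the adjusted p-value from limma was 0.124 and the log2 fold change 0.25, and without shRNA-UBC9 replicate 1, 2 or 3 the adjusted p-values were 0.0529, 0.07 and 0.086.

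PIAS3, named for its binding to STAT3, was the highest ligase gene by RPKM, though not by reads. It had 8.43, 7.04 and 8.43 RPKM in shRNA-NC and 7.66, 7.70 and 7.81 RPKM in shRNA-UBC9, and the groups overlapped. The 95% interval of its log2 fold change ran from -0.26 to 0.18. PIAS1, the founding member of the family, lay between 3.84 and 4.06 RPKM in shRNA-NC and between 3.81 and 4.39 RPKM in shRNA-UBC9, with an interval of -0.14 to 0.29. Exons of PIAS1 and PIAS3 overlap those of CALML4 and NUDT17 on the opposite strand, genes with at most 0.533 and 0.749 RPKM here. PIAS2, known as a coregulator of the androgen receptor, was the lowest member by RPKM, at 0.937, 0.967 and 0.966 RPKM in shRNA-NC. In shRNA-UBC9 it had 1.36 RPKM in replicate 1 and 0.933 and 0.877 RPKM in the others, so replicate 1 stood above the rest. Its interval was the widest of the ligases, from -0.32 to 0.53, and without shRNA-UBC9 replicate 1 its log2 fold change was -0.073. None of these 3 ligases passed the test (adjusted p-values from limma of 0.547 for PIAS1, 0.681 for PIAS2 and 0.783 for PIAS3). Their intervals reflect only the spread between these samples, so they do not exclude a size of response.

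**Figure D2:**
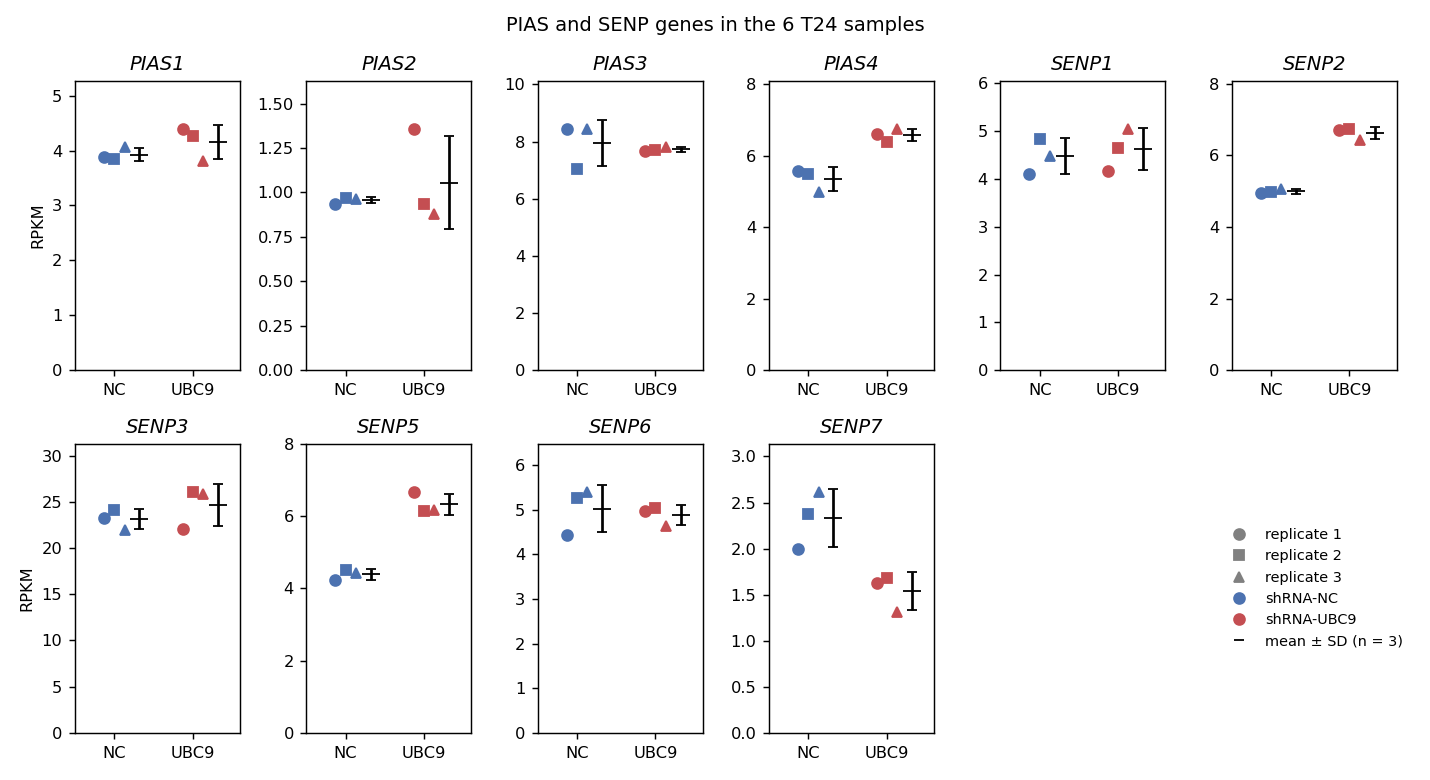
RPKM of the 10 PIAS and SENP genes in each of the 6 samples, with the replicate number as the symbol, shRNA-NC in blue, shRNA-UBC9 in red, and the mean ± SD (n = 3) in black. Each axis starts at 0 and has its own scale. The groups are apart for PIAS4, SENP2, SENP5 and SENP7 and overlap in the other 6 panels.

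The proteases fall into 3 pairs of related enzymes. In each pair 1 gene was called, beside 36.8% of all tested genes, so 1 call per pair is not read as a result about the pairs. SENP1 and SENP2 process the SUMO precursors and remove SUMO from many nuclear proteins. SENP2, which is found at the nuclear pore, had 4.94, 4.98 and 5.06 RPKM in shRNA-NC and 6.72, 6.73 and 6.45 RPKM in shRNA-UBC9. The spread within each group was small against the gap between them, and the log2 fold change was 0.40 (95% interval 0.22 to 0.59, SE 0.08, limma adjusted p = 0.0061). SENP1, known for acting on HIF1A, had 4.10, 4.84 and 4.48 RPKM in shRNA-NC and 4.17, 4.65 and 5.04 RPKM in shRNA-UBC9, with an interval of -0.20 to 0.29 (limma adjusted p = 0.778). Its exons share 516 bases with those of PFKM on the opposite strand, a gene with 8.68 to 12.3 RPKM here, and whether the counting used strand is not stated, so some SENP1 reads may belong to PFKM. The ratio of SENP2 to SENP1 was 1.12 ± 0.0891 in shRNA-NC and 1.45 ± 0.167 in shRNA-UBC9 (SD, n = 3 each), and the groups did not overlap. SENP2 alone already separated the groups, so the separation of this ratio is not a further result.

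SENP3 and SENP5 are nucleolar proteases that prefer SUMO2 and SUMO3, and SENP3 acts in ribosome maturation. SENP5 had 4.22, 4.52 and 4.44 RPKM in shRNA-NC and 6.67, 6.13 and 6.17 RPKM in shRNA-UBC9. It had the largest rise of the 10 genes, with a log2 fold change of 0.51 (95% interval 0.32 to 0.71, SE 0.086, limma adjusted p = 0.00283). SENP3 was the most abundant of all, at 23.1 ± 1.09 RPKM in shRNA-NC and 24.7 ± 2.26 RPKM in shRNA-UBC9 (SD, n = 3 each). The groups overlapped for SENP3, with shRNA-UBC9 replicate 1 at 22.0 RPKM and the other shRNA-UBC9 replicates at 26.1 and 25.9 RPKM, and the interval ran from -0.13 to 0.31 (limma adjusted p = 0.488). The read-through gene SENP3-EIF4A1 shares 1511 exonic bases with SENP3, whose recovered length was 3659 bases, and was listed at 0.390 to 1.46 RPKM. How reads in the shared bases were counted is not stated, so the share of SENP3 reads with an uncertain assignment is not known. SENP5 amounted to 0.190 ± 0.0106 of the SENP3 level in shRNA-NC and to 0.259 ± 0.0379 in shRNA-UBC9 (SD, n = 3 each).

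SENP6 and SENP7 trim chains of SUMO2 and SUMO3, and SENP7 has been linked to heterochromatin. SENP7 had 1.99, 2.38 and 2.62 RPKM in shRNA-NC and 1.63, 1.69 and 1.31 RPKM in shRNA-UBC9. It was the only member called lower, with a log2 fold change of -0.57 (95% interval -0.91 to -0.22, SE 0.149, limma adjusted p = 0.0191). All shRNA-UBC9 values lay below all shRNA-NC values, and the nearest were 1.69 and 1.99 RPKM. The call was lost without shRNA-NC replicate 2 (log2 fold change -0.55, limma adjusted p = 0.0517), without shRNA-NC replicate 3 (-0.48, 0.0801) and without shRNA-UBC9 replicate 3 (-0.46, 0.0537). It was also lost with no filter on low values (limma adjusted p = 0.0531). SENP6 had 4.43, 5.25 and 5.4 RPKM in shRNA-NC and 4.97, 5.04 and 4.64 RPKM in shRNA-UBC9, and its interval ran from -0.27 to 0.20 (limma adjusted p = 0.807). SENP6 was 2.16 ± 0.0886 times the level of SENP7 in shRNA-NC and 3.20 ± 0.304 times in shRNA-UBC9 (SD, n = 3 each).

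For each of the 4 called genes the samples of the groups did not overlap, which gives an exact permutation p of 0.1, the smallest that 3 samples against 3 allow. The same separation held in 51.1% of all tested genes. SENP7 rested on 236 to 566 reads per sample, a counting error of 4.2% to 6.5%, while its coefficient of variation between samples was 13.5% in shRNA-NC and 13.2% in shRNA-UBC9. SENP2 rested on 1058 to 1737 reads, a counting error of 2.4% to 3.1%. Its coefficient of variation was 1.2% in shRNA-NC, below the counting error of those samples, and 2.45% in shRNA-UBC9. PIAS2 had 857 reads in shRNA-UBC9 replicate 1, a counting error of 3.4%. Counting errors cover the sampling of reads only, and reads made by PCR are not independent molecules.

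In shRNA-NC the order of the members by level ran from SENP3 through PIAS3 (7.97 RPKM), PIAS4 (5.35), SENP6 (5.02), SENP2 (5), SENP1 (4.47), SENP5 (4.39), PIAS1 (3.93) and SENP7 (2.33) to PIAS2 (0.957). The ranges of neighbours overlapped between PIAS4 and SENP6, between SENP6 and SENP2 and between SENP1 and SENP5. In shRNA-UBC9, SENP2 (6.63 RPKM), PIAS4 (6.58) and SENP5 (6.32) followed SENP3 and PIAS3, and SENP6 (4.88), SENP1 (4.62), PIAS1 (4.16), SENP7 (1.54) and PIAS2 (1.06) came after. There the ranges overlapped between SENP2 and PIAS4, PIAS4 and SENP5, SENP6 and SENP1, SENP1 and PIAS1, and SENP7 and PIAS2. SENP5 was thus the seventh gene in shRNA-NC and the fifth in shRNA-UBC9.

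**Figure D3:**
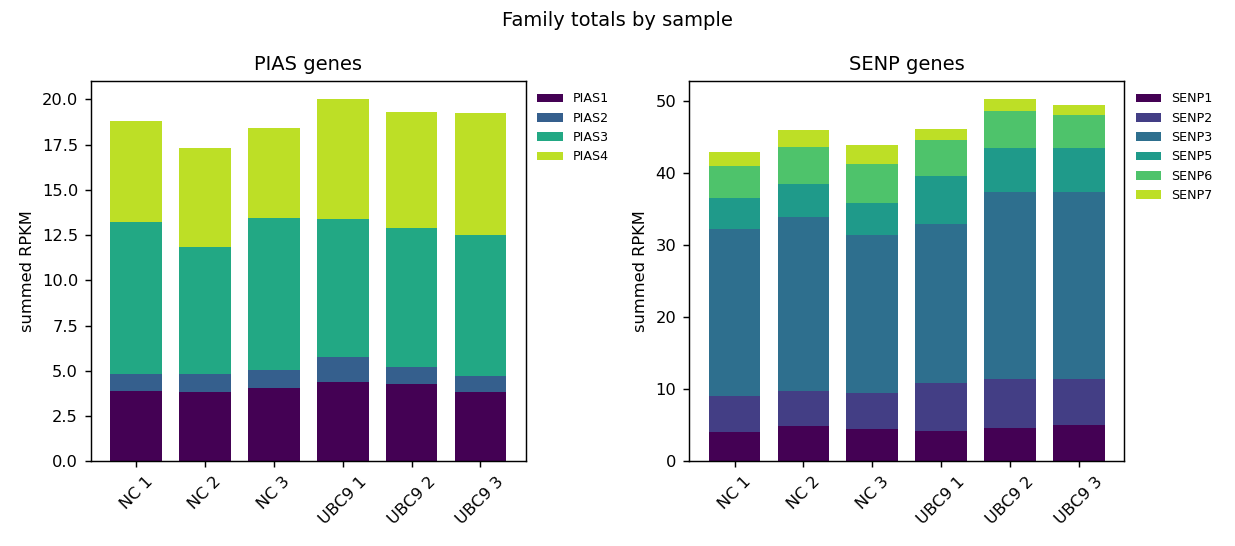
Stacked RPKM of the 4 PIAS genes (left) and the 6 SENP genes (right) in each sample, where NC is shRNA-NC, UBC9 is shRNA-UBC9 and the number is the replicate. PIAS totals run from 17.3 to 20 RPKM and SENP totals from 43.0 to 50.3 RPKM, with SENP3 making up about the same part of the SENP total in every sample.

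Summed over the family, PIAS transcript was 18.2 ± 0.772 RPKM in shRNA-NC and 19.5 ± 0.431 RPKM in shRNA-UBC9 (SD, n = 3 each). SENP transcript was 44.3 ± 1.59 RPKM in shRNA-NC and 48.7 ± 2.16 RPKM in shRNA-UBC9 (SD, n = 3 each). The sums are given as a description without a test. SENP3 held 50% to 54.2% of the SENP total in shRNA-NC and 47.7% to 52.3% in shRNA-UBC9. The part held by SENP5 was 9.91% ± 0.161 in shRNA-NC and 13% ± 1.22 in shRNA-UBC9, and that of SENP7 was 5.25% ± 0.664 and 3.17% ± 0.465 (SD, n = 3 each). The part of PIAS4 in the PIAS total was 29.4% ± 2.36 and 33.7% ± 1.13, and that of PIAS3 was 43.7% ± 2.74 and 39.6% ± 1.18 (SD, n = 3 each). The SENP total per PIAS total was 2.44 ± 0.194 and 2.49 ± 0.163, with overlapping groups.

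SENP2 (chr3:185582496-185633551), SENP5 (chr3:196867856-196934714) and SENP7 (chr3:101324205-101513241) all lie on chromosome 3, in GRCh38 coordinates from GENCODE release 44. PIAS4 lies at chr19:4007736-4039386. Within 2 Mb on each side of SENP2, 33 other genes were tested, of which 6 were called higher and 3 lower, with a median log2 fold change of 0.03. Around SENP5 these numbers were 5 and 4 of 27, with a median of 0.04. Around SENP7, which fell, 8 of 17 were called higher and 2 lower, with a median of 0.33. Around PIAS4 the numbers were 11 and 13 of 69, with a median of 0.07. Of the 635 tested genes of chromosome 3, 134 were called higher and 116 lower, with a median of 0.02.

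Among the 3 lists of other SUMO pathway genes, with 4, 9 and 5 genes tested, 3 genes were called higher and 4 lower. These calls stand beside 36.8% of all tested genes called, a similar share. Of the 7, 0 reached the DEG cutoff, which 7.89% of all tested genes passed. Of 5 listed genes for SUMO and its E1 enzyme, 4 were tested, 1 was called higher and 2 lower, with a median log2 fold change of -0.152 against 0.005 over all tested genes. SAE1, the smaller part of the E1 enzyme, fell from a mean of 71.4 ± 2.83 to 50.5 ± 5.34 RPKM (SD, n = 3 per group), with a log2 fold change of -0.50 (limma adjusted p = 0.00532). UBA2, its catalytic part, fell from a mean of 26.9 ± 2.34 to 21.5 ± 1.15 RPKM (SD, n = 3 per group), with a log2 fold change of -0.32 (limma adjusted p = 0.0278). SUMO2, the modifier that SENP3, SENP5, SENP6 and SENP7 act on, rose from a mean of 73 ± 2 to 88.6 ± 1.31 RPKM (SD, n = 3 per group), with a log2 fold change of 0.28 (limma adjusted p = 0.019). SUMO3 had a log2 fold change of 0.02 and was not called, and SUMO4 did not pass the filter. Reads of SUMO2 may be shared with its processed pseudogenes, and how such reads were counted is not stated. SAE1 kept its call without any single sample. UBA2 lost it without any of 5 samples, all but shRNA-NC replicate 1, and SUMO2 lost it without shRNA-NC replicate 1, shRNA-NC replicate 3 or shRNA-UBC9 replicate 2, with adjusted p-values of up to 0.0797 for UBA2 and 0.0701 for SUMO2 (limma).

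**Figure D4:**
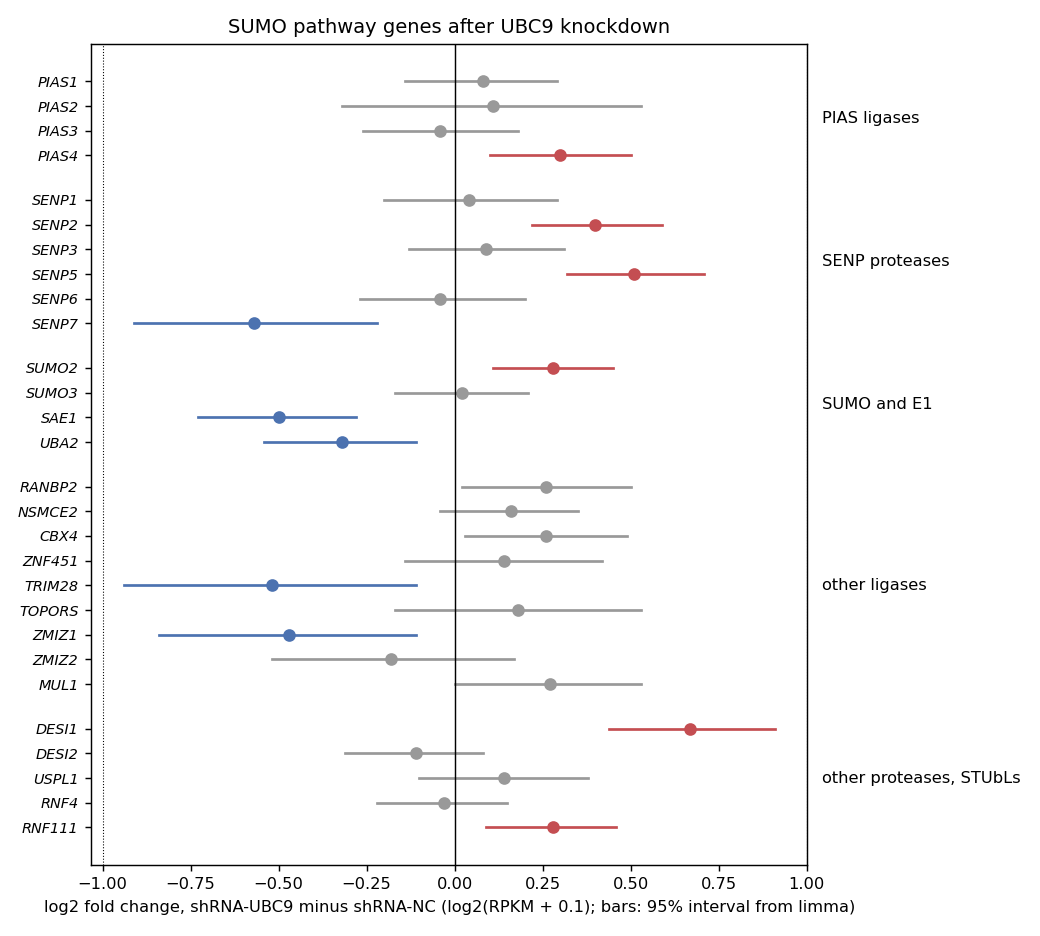
Log2 fold change (shRNA-UBC9 minus shRNA-NC, on log2(RPKM + 0.1)) with its 95% interval from limma for the PIAS and SENP genes and the tested genes of the 3 other SUMO lists. Red points were called higher, blue points lower and grey points were not called, and dotted lines mark the DEG cutoff. All points lie within the cutoff.

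Of 9 other SUMO ligases, 2 were called lower and 7 were not called, with a median log2 fold change of 0.155. These were TRIM28, a corepressor of zinc finger proteins (log2 fold change -0.52, limma adjusted p = 0.0499), and ZMIZ1, a relative of the PIAS proteins with the same type of RING (-0.47, adjusted p = 0.0483). Both calls were lost in most fits without 1 sample, TRIM28 without any sample but shRNA-UBC9 replicate 3 and ZMIZ1 without shRNA-NC replicate 1 or 3 or shRNA-UBC9 replicate 1 or 2, with adjusted p-values of up to 0.151 for each (limma). Of 5 other SUMO proteases and SUMO-targeted ubiquitin ligases, 2 were called higher and 3 were not called, with a median of 0.139. DESI1, a SUMO protease unrelated to the SENP family, rose from a mean of 10.1 ± 0.409 to 16.2 ± 1.83 RPKM (SD, n = 3 per group), with a log2 fold change of 0.67 (limma adjusted p = 0.00174) that kept its call without any single sample. RNF111, which attaches ubiquitin to proteins carrying SUMO chains, had a log2 fold change of 0.28 (limma adjusted p = 0.0278), and lost the call without any sample but shRNA-UBC9 replicate 1, with adjusted p-values of up to 0.0813.

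The NEDD8 pathway, which attaches another ubiquitin-like protein and whose modifier is matured by the SENP-related protease SENP8, was set beside these genes. All of its 10 listed genes were tested, with a median log2 fold change of 0.106. Of these, 3 were called higher and 1 lower, beside 18.8% and 18% of all tested genes. SENP8, the NEDD8 protease that shares its name with the SUMO proteases, had 0.558 ± 0.0749 RPKM in shRNA-NC and 0.605 ± 0.106 RPKM in shRNA-UBC9 (SD, n = 3 each) and was not called (limma adjusted p = 0.745). The E2 enzymes UBE2M and UBE2F had log2 fold changes of 0.59 and 0.45, RNF7, a RING subunit of cullin ligases, had 0.44, and UBA3, the catalytic part of the NEDD8 E1, had -0.97, all with adjusted p-values of at most 0.0109 (limma). These 4 calls held without any single sample.

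Genes tied to the work of single members were counted too. Among 7 genes whose products act with SENP3 in ribosome maturation, 1 was called higher and 1 lower, beside 18.8% and 18% of all tested genes. Their median log2 fold change was -0.101. TEX10 had 0.55 (limma adjusted p = 0.00346), and NPM1, which anchors SENP3 in the nucleolus, had -0.29 (adjusted p = 0.045), a call lost without any sample but shRNA-UBC9 replicate 3 (adjusted p-values of up to 0.115). Of 6 listed STAT factors, the family after which the PIAS proteins are named, 5 were tested, with a median of 0.152. Of these, 1 was called higher, beside 18.8% of all tested genes, and 4 were not called. STAT3, the partner of PIAS3, had 22.3 ± 2.73 RPKM in shRNA-NC and 25.0 ± 1.11 RPKM in shRNA-UBC9 (SD, n = 3 each) and was not called (limma adjusted p = 0.228). STAT2 had a log2 fold change of 0.85 (limma adjusted p = 0.0182), with the call lost without shRNA-NC replicate 1 (adjusted p = 0.0649). Of 9 genes of PML nuclear bodies, the sites where many SUMO-modified proteins gather, 8 were tested, 4 were called higher and 4 were not called, with a median of 0.45, beside 18.8% of all tested genes called higher. SP110, SP100, PML and SP140L had log2 fold changes of 2.29, 1.46, 0.84 and 0.58, with adjusted p-values of 0.000499, 0.00037, 0.00723 and 0.0282 (limma). In shRNA-UBC9 replicates 1, 2 and 3, SP110 had 7.79, 15.2 and 7.52 RPKM, PML had 7.52, 12.6 and 9.14 RPKM and STAT2 had 12.5, 20.6 and 10.5 RPKM, so replicate 2 was the highest for each. Without that replicate the log2 fold changes were 1.97 for SP110, 1.30 for SP100, 0.63 for PML, 0.38 for SP140L and 0.57 for STAT2. For SP140L the call was lost without any 1 of the shRNA-NC samples or shRNA-UBC9 replicate 2, with adjusted p-values of up to 0.0864. SP100 and SP110 were the DEGs of these lists, and no PIAS or SENP gene reached that cutoff.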

How the data were processed

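PolyA RNA of 6 T24 samples was sequenced from Illumina TruSeq libraries. After adaptor trimming the authors aligned reads to hg38 (per the labels) with the CLC Biomedical Genomics Workbench at default parameters and deposited RPKM values, 1 table per sample. The annotation release, strandedness and handling of reads with several positions are not given in the sources used here. RPKM is not corrected for RNA composition.

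RPKM values of some single-exon genes, multiplied by their GENCODE release 44 lengths, fall on whole multiples of 1 read. The commonest total of mapped reads that these genes gave was taken for each sample, and it rested on 28 to 36 genes per sample. A gene length that made reads whole in all 6 samples, within 0.01 of a read, was found for 100% of the 12428 tested genes. These reads were used for counting errors and, in an added setting chosen after the values were seen, for limma voom.

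Genes with at least 0.5 RPKM in at least 3 samples were compared on log2(RPKM + 0.1) with limma 3.58.1 in R 4.3.3 (eBayes with an intensity trend), Benjamini-Hochberg adjusted over all tested genes. Alternatives changed the pseudocount, filter, scaling, variance model, call threshold or replicate block, or left out 1 sample. Single values were compared by two-sided exact permutation tests. Any 2 samples shared 0 genes with identical non-zero values. On simulated data for this comparison (12428 genes), 100 genes were set to a log2 change of 1 and 100 to 0.5, in either direction. The fit found 80% and 33% of them and made 3 false calls. Far fewer genes changed there than the 36.8% called in the data, so these shares do not give the power for the members. Named were all 10 members, SENP8, SENP3-EIF4A1 and, in each list, up to 4 called genes of smallest adjusted p. SUMO3, SUMO4, STAT3, the genes overlapping members and the markers that were not called were named after their values were seen. The gene targeted by the hairpin and a few genes of the lists are not reported here, and the lists were counted without them. The members and lists were chosen with earlier results of these data known. Python 3.11.15 with numpy 2.4.6, pandas 2.3.3 and matplotlib 3.10.9 was used for the rest.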

Additional observations from a re-analysis of the deposited data

How the results depend on the processing

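All values come from 3 samples a group and 1 hairpin, and RPKM carries no correction for RNA composition. The count of members called stayed at 3 higher and 1 lower with voom on the recovered reads, another pseudocount, TMM factors, quantile normalization, no intensity trend, an RPKM of at least 1 in all samples (which left out PIAS2) and the unadjusted p. With median scaling it was 2 and 1, as PIAS4 missed the threshold (limma adjusted p = 0.0554), with array weights 4 and 1 (SENP3 added, limma adjusted p = 0.0434), and with no filter on low values 3 and 0. The calls among all tested genes moved too, from 2339 higher and 2237 lower in the report. They were 2050 and 2574 with median scaling, 3347 and 3211 with array weights, and 2207 and 1847 with no filter, over a larger set of genes. SENP2 and SENP5 kept their calls in every alternative except the DEG rule.

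By the DEG rule no member was called in either direction (0 and 0), 646 of all tested genes were higher and 335 lower, and the 3 other SUMO lists gave 0 higher and 0 lower. Those lists, with 3 higher and 4 lower in the report, gave 2 lower with no filter, with TMM factors and without the intensity trend, and 6 higher with array weights or the unadjusted p. Over all tested genes the lower calls were 1847, 2259 and 2119 in the first 3 of these settings, beside 2237 in the report. The higher calls were 3347 with array weights and 2957 by the unadjusted p, beside 2339. Leaving out 1 sample gave 2 to 3 members higher and 0 to 1 lower, 1633 to 2180 and 1401 to 2003 of all tested genes, and 1 to 4 and 1 to 3 genes of the lists. Without shRNA-NC replicate 3 the count of lower genes was 1401 in place of 2237.

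Members that were not called changed sign: SENP1 was -0.008 with quantile normalization, PIAS2 -0.0091 with array weights, and with 1 sample left out PIAS2 lay between -0.073 and 0.21, PIAS3 between -0.12 and 0.0043, SENP1 between -0.02 and 0.11 and SENP6 between -0.12 and 0.016. The cause was not tested.

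With the replicate number as a block, 2 members were called higher and 0 lower (PIAS4 adjusted p = 0.0842, SENP7 0.0531), with 1 higher and 2 lower in the lists and 1749 and 1625 among all genes. Whether the numbers pair the samples is not stated. Over all tested genes the correlation of same-numbered samples' deviations from their group means was -0.367, 0.073 and -0.17 for replicates 1, 2 and 3. Deviations cancel within a group, so these correlations depend on each other and cannot settle a pairing.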

Other observations

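The deviations of shRNA-NC replicate 1 and shRNA-UBC9 replicate 3 from their group means correlated at 0.526 over the tested genes, which are not independent replicates, the highest of the 9 pairs of samples from different groups. These were also the samples with the fewest mapped reads, 29847726 and 28219032 against 33838697 to 36058872 in the others.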
